A study of Mus musculus with 4 samples.

Results

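The nuclear receptor genes studied here are 35 ligand-dependent or orphan transcription factors chosen by symbol, which leave out the clock receptors of the Nr1d and Ror families and the bile acid receptors Nr1h4 and Nr0b2. The authors' deposited gene table, which names 20909 genes with 1 probe each, holds 34 of them. Expression of Nr3c2, the mineralocorticoid receptor, was not analysed here. The accession of each of the 34 still carries the same symbol in the RefSeq table of assembly GRCm38.p6. Of these 34 genes, 33 had a value in all 4 liver pairs, and Hnf4g had 3.

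The arrays compared livers of Wrn mutant mice with livers of wild type mice, all C57Bl/6 males aged 3 months, fed freely, kept under a reversed light cycle with 12 h of dark, and left untreated. Wrn encodes a RecQ DNA helicase, and the nature of the mutant allele is not in the labels. Each of 4 two-colour arrays carried RNA of 1 mutant and 1 wild type liver, with the mutant in Cy3 in pairs 1 and 2 and in Cy5 in pairs 3 and 4. Every value below is a log2 ratio of mutant over wild type within a pair, so 1 unit is a doubling. The direction is inferred from the sample titles, which name the mutant first, and a wild type numerator would turn all signs. The Wrn probe read 1.77, 0.91, 1.12 and 1.37 in pairs 1 to 4, higher in the mutant in every pair, and with the allele unknown this checks neither label nor direction. Hepatocyte markers were among the brightest probes, with a median A of 15.0, where A is the average log2 intensity in the authors' deposited table. Bulk liver RNA does not tell fewer cells of a type from less RNA per cell.

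Nuclear receptors share a zinc-finger domain that binds short DNA elements and, in most of them, a pocket for a lipid-soluble ligand. Many of those found in hepatocytes bind DNA beside a retinoid X receptor (RXR), while the steroid receptors pair with themselves. In liver they set the programmes of fatty acid oxidation, bile acid and cholesterol handling, drug metabolism and glucose production.

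Upstream sequences of Nr1i3, Rxrb, Nr2f2 and Pparg are shown, since these bright receptor genes were higher in the mutant in all 4 pairs and many receptors bind the core AGGTCA. Thra and Nr4a2, also higher in all 4 pairs with probes brighter than the median named probe, are not shown. The sequences printed are thus examples. Each is the 250 bases before a RefSeq start, GRCm38.p6, read 5′ to 3′ on the strand of the gene. Nr1i3 lies at chr1:171213720-171213969 on the plus strand, and the first Rxrb start at chr17:34031562-34031811, also plus. Nr2f2 lies at chr7:70366747-70366996 on the minus strand. The first and second Pparg starts lie at chr6:115360894-115361143 and chr6:115362099-115362348, both plus. Capitals mark AGGTCA, the GC box GGGCGG, the E-box CACGTG and the TATA box TATAAA, on either strand.
Nr1i3: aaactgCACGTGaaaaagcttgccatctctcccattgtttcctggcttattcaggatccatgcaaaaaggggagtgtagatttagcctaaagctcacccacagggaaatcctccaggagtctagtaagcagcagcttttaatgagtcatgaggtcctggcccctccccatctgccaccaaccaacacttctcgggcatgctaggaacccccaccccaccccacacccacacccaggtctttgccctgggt
Rxrb: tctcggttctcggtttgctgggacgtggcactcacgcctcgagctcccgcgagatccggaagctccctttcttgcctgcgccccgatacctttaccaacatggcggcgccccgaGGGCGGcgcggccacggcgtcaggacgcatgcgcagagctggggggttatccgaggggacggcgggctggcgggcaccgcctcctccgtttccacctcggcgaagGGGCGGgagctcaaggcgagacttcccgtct
Nr2f2: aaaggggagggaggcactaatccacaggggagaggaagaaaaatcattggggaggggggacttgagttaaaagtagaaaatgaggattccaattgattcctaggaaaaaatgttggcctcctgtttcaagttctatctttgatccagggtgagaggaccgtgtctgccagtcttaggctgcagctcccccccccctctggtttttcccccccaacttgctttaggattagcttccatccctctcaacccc
Pparg, first start: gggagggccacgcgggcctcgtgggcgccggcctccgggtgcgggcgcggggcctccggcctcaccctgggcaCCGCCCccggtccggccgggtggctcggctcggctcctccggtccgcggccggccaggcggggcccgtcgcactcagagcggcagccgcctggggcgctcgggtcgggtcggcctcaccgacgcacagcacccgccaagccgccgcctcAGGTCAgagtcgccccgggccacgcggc
Pparg, second start: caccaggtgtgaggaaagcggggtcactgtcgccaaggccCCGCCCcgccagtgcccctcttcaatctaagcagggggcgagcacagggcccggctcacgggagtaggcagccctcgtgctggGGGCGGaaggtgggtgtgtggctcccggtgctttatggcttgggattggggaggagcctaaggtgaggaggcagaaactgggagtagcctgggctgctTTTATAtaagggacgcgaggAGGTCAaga
Nr1i3 held 1 match, a CACGTG at the end farthest from the start. The Rxrb start shown held 2 GGGCGG and the other Rxrb start 3, and Nr2f2 held none of the 4 motifs. Each of these Pparg starts held 1 AGGTCA, and the remaining Pparg start, not printed, held none of the 4 motifs.

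Sequences were found for 32 of the 35 genes, with 52 starts in all. AGGTCA was in 8 of these 52 windows (15.4%), against 14.0% of 32851 windows of the same length before all RefSeq starts. The 7 genes were Nr5a2, Nr6a1, Pparg, Rarg, Rxra, Rxrg and Thrb. AGGTCA repeated in 1 direction with 1 or 4 bases between the copies, which also counts as AGGTCA, was in 0 of the 52 windows and in 0.0335% and 0.0152% of all windows. GGGCGG was in 48.1% of the receptor windows and 32.7% of all windows, CACGTG in 5.77% and 6.02%, and TATAAA in 11.5% and 12.4%. A match describes letters only, and windows of 1 gene can overlap.

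No receptor gene was called different between the genotypes after adjustment, which does not show that their levels were equal. In data simulated with this spread, described below, 0% of 50 probes changed by 2 log2 units were called. With limma and a dye term, 0 of the 34 receptor genes had a Benjamini-Hochberg adjusted p under 0.05, and 0 of all 40238 probes did (0.0%), while 2673 probes (6.64%) had an unadjusted p under 0.05. The receptor genes' adjusted p in limma ran from 0.736 to 0.998. An unadjusted p under 0.05 was found for 5 receptor genes, all higher in the mutant, which is 14.7% of 34 against 9.26% of the 20379 named genes tested, 4.74% higher and 4.52% lower. They were Hnf4g, Pgr, Nr1i3, Nr2f2 and Pparg. A limma fit whose prior variance followed probe brightness called 42 of 20379 named probes (0.206%) and again 0 receptor genes. Nr1i3 came closest there, with an adjusted p of 0.063, then Nr2f2 at 0.118 and Pparg at 0.193.

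The receptor genes as a group were centred near 0. Over the 33 with 4 values the median of the mean log2 ratios was 0.057, against 0.041 over 17686 named genes, and 18 had a positive and 15 a negative mean, against 53.4% positive among the named genes. The pair medians were -0.12, -0.0052, 0.10 and 0.26 in pairs 1 to 4. In 12 genes (36.4%) all 4 pairs shared 1 direction, 8 higher and 4 lower, against 21.0% of all named genes, 10.9% higher and 10.1% lower. Among the 24 with 4 values brighter than the median named probe, whose A was 6.4, the share was 7 genes (29.2%, against 26.1% of named genes that bright), and among 9 dimmer ones it was 5 (55.6%, against 14.2%). Dim probes were also noisier: the median SD between pairs was 0.87 in dim and 0.40 in bright receptor genes.

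**Figure D1:**
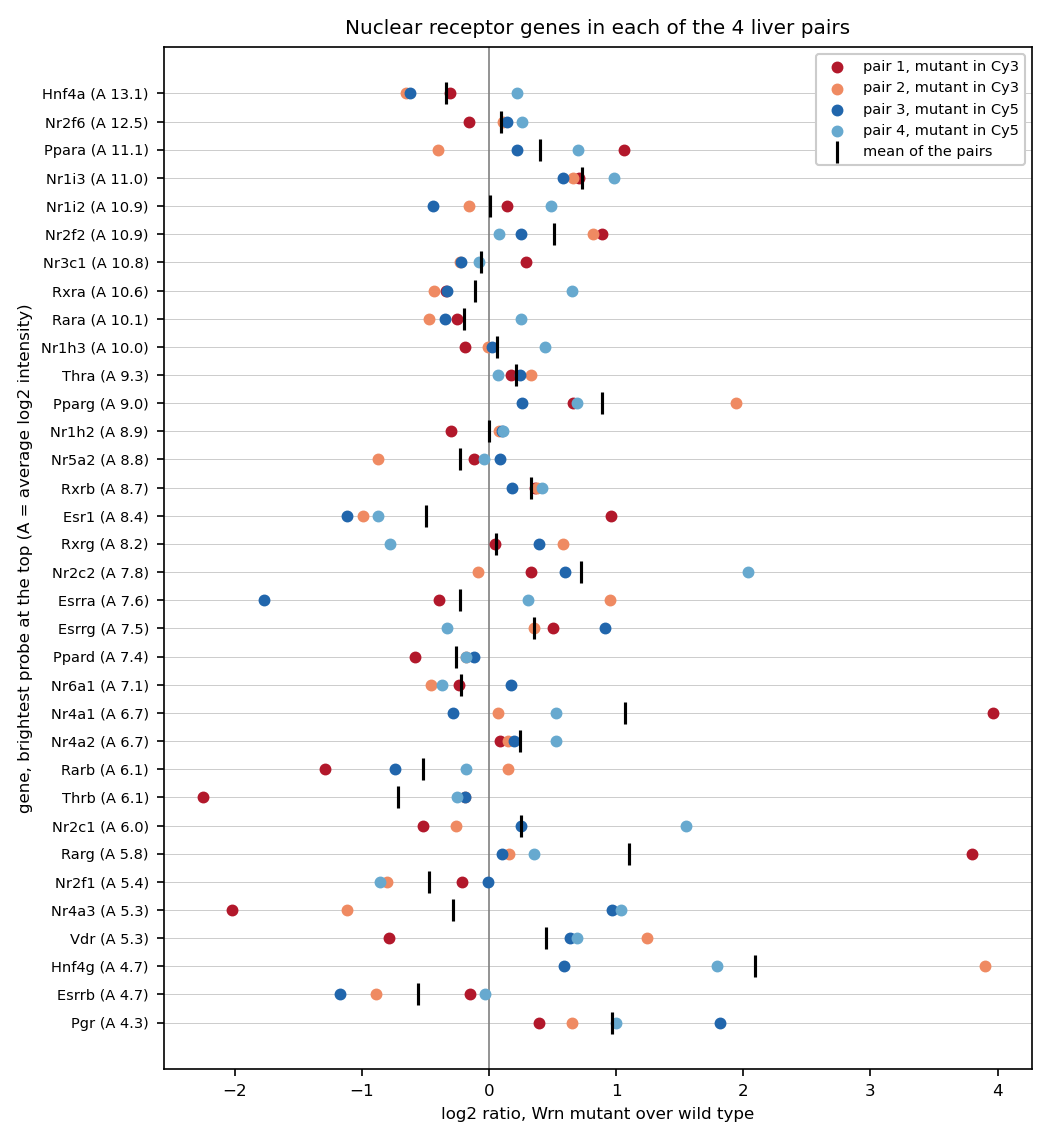
Log2 ratio of mutant over wild type (horizontal axis) for 34 receptor genes, ordered by A with the brightest at the top; each point is a liver pair, coloured by pair and dye orientation, and the black bar is the mean. The points of Nr1i3, Rxrb and Thra lie close together right of 0, while Rarg, Nr4a1 and Thrb each have pair 1 far from the rest.

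Probe brightness gave a rough order of which receptor genes the liver RNA lit up, with Hnf4a at an A of 13.1 and Pgr at 4.26 as the ends. A depends on the probe as well as on the RNA, so this is an order of probes and not of transcript levels. The 12 brightest were Hnf4a, Nr2f6, Ppara, Nr1i3, Nr1i2, Nr2f2, Nr3c1, Rxra, Rara, Nr1h3, Thra and Pparg, most of them receptors known from hepatocytes. The 10 below the median named probe were Rarb, Thrb, Nr2c1, Rarg, Nr2f1, Nr4a3, Vdr, Hnf4g, Esrrb and Pgr.

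Against named genes of like brightness, taken in 20 bins of A, 6 receptor genes lay above the 95th percentile of the mean log2 ratio and 1 lay below the 5th. The 6 were Pparg, Rarg, Nr1i3, Nr2c2, Nr2f2 and Nr4a1, and the 1 was Thrb. By construction 10% of all genes lie outside this band. Rarg, Nr4a1, Nr2c2 and Thrb were there through a single pair, as given below, and Nr2f2, at 0.51, averaged 0.38 without pair 1 and 0.41 without pair 2, against a 95th percentile of 0.43 and 0.50 in the bins around its A of 10.9.

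**Figure D2:**
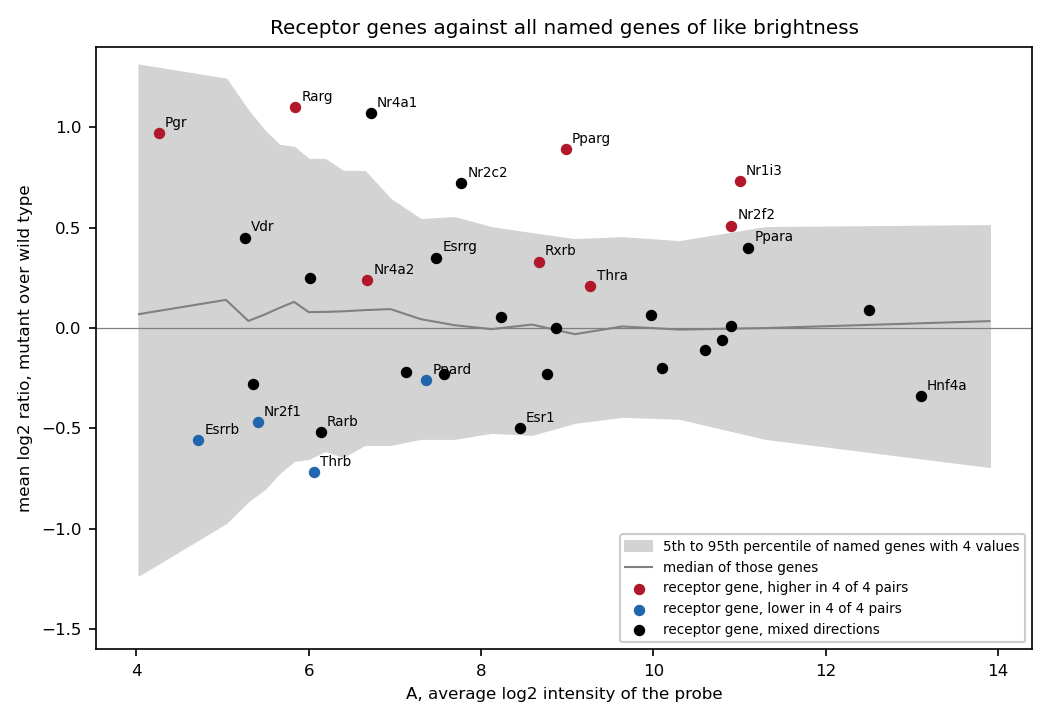
Mean log2 ratio of 4 pairs (vertical axis) against A (horizontal axis) for the 33 receptor genes with 4 values; the grey band spans the 5th to 95th percentile of named genes of like brightness and the grey line their median. Nr1i3, Pparg, Nr2f2, Nr2c2 and Nr4a1 sit above the band among probes brighter than the median named probe, and the band widens toward dim probes.

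The xenobiotic receptors are the liver's sensors of drugs and toxins. Nr1i3, which encodes the constitutive androstane receptor (CAR), had log2 ratios of 0.71, 0.66, 0.58 and 0.98, with a mean of 0.73 ± 0.17 (SD, n = 4), or 1.66-fold. All pairs were higher in the mutant, and they lay close together. This rests on the deposited ratios having 1 direction on all arrays: with pairs 3 and 4 turned in sign, the fitted value was -0.048. Its limma p was 0.0103 before and 0.736 after adjustment, and an exact sign-flip test gave 0.125, the smallest that 4 pairs allow. Nr1i2, which encodes the pregnane X receptor (PXR), was at 0.14, -0.16, -0.44 and 0.49. Its pairs lay on both sides of 0, with a mean of 0.0083 ± 0.40 (SD, n = 4).

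Known target genes of CAR and PXR were given by a list chosen with earlier results of these data known. It holds 23 genes, of which 22 had 4 values. Their median log2 ratio was 0.36, with pair medians of 0.28, 0.36, 0.51 and 0.53, and 17 had a positive mean. Higher in all 4 pairs were 9 and lower was 1, against 10.9% and 10.1% of named genes. An unadjusted limma p under 0.05 was found for 6 on the higher and 1 on the lower side, against 4.74% and 4.52% of named genes, and an adjusted one for 0. Slco1a4, an organic anion carrier, was at 0.38, 0.95, 1.18 and 1.30. Cyp2b9 and Cyp2b13, female-predominant cytochromes P450 in mouse liver, were at 5.27, 2.64, 3.69 and 0.60 and at 0.61, 1.44, 2.40 and 0.65. These values are uncertain, since Cyp2b genes are close in sequence and cross-hybridisation was not tested. The Cyp2b9 probe was also dim, with an A of 6.23. Cyp2b10 and Cyp3a11, the textbook targets of CAR and PXR, were singled out after their values were seen, and had mixed directions with means of 0.36 ± 0.79 and -0.29 ± 0.80 (SD, n = 4). Cyp2c55, another drug-metabolising cytochrome, was lower in every pair, at -0.40, -0.36, -0.57 and -0.51.

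RXR genes encode the shared partners of the lipid, vitamin, thyroid and xenobiotic receptors. Rxrb was at 0.36, 0.38, 0.18 and 0.42, with a mean of 0.33 ± 0.11 (SD, n = 4) and an unadjusted limma p of 0.089. All 4 pairs were higher in the mutant, by a small and even amount. Rxra, the main RXR of hepatocytes, was at -0.34, -0.43, -0.33 and 0.65. Its first 3 pairs lay below 0 and pair 4 above, so the mean of -0.11 became -0.37 without pair 4. Rxrg, known mainly from muscle and brain, ran from -0.78 in pair 4 to 0.58 in pair 2.

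The PPAR family encodes receptors for fatty acids, and differences between its genes were not tested. Pparg, the adipocyte and macrophage member, was at 0.66, 1.94, 0.26 and 0.69. All pairs were higher in the mutant, with pair 2 far above the rest. Its mean was 0.89 ± 0.73 (SD, n = 4), or 1.85-fold, with a limma p of 0.0335 before and 0.736 after adjustment, and 0.54 without pair 2. Ppard, a widely expressed member, was at -0.58, -0.18, -0.12 and -0.18. It was lower in every pair, and pair 1 gave most of the distance from 0, the mean being -0.26 ± 0.21 (SD, n = 4) and -0.16 without pair 1. Ppara, the receptor that drives hepatic fatty acid oxidation, was at 1.06, -0.40, 0.22 and 0.70. It was higher in 3 of 4 pairs, with a mean of 0.40 ± 0.63 (SD, n = 4) and an unadjusted limma p of 0.268.

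Kupffer cell and macrophage markers had a median of 0.63 over 14 genes, with 13 positive means and pair medians of 0.73, 1.00, -0.20 and 0.94. Adipocyte markers had a median of 0.26 over 6 genes, with pair medians of -0.29, 0.19, 0.89 and 0.13. In pair 2, where Pparg was at 1.94, the macrophage median was 1.00 and the adipocyte median 0.19. In pair 3, where Pparg was at 0.26, these medians were -0.20 and 0.89. The part of either cell type in the Pparg value was not tested. The list of known PPARA targets was likewise chosen with earlier results of these data known. Known PPARA targets were higher in 13 and lower in 1 of 30 genes in all 4 pairs, against 10.9% of named genes higher and 10.1% lower. Their median was 0.55. An unadjusted limma p under 0.05 was found for 11 of them, all on the higher side, against 4.74% of named genes on that side, and an adjusted one for 0. The list's probes were bright, with a median A of 11.7, and among named genes brighter than the median 1356 of 10156 were higher in all 4 pairs.

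The oxysterol receptors (LXRs) were near 0. Nr1h3, the liver LXR, was at -0.19, -0.0052, 0.022 and 0.44, and Nr1h2, the widespread one, at -0.30, 0.079, 0.10 and 0.11. Their means were 0.066 ± 0.27 and -0.0026 ± 0.20 (SD, n = 4). Of 16 LXR targets 1 was higher and 2 were lower in all 4 pairs, against 10.9% and 10.1% of named genes. The list's median was 0.030. Srebf1, a lipogenic factor that LXR induces, was at -0.44, -0.51, -0.16 and -0.26, and Abca1, a cholesterol exporter, at -1.14, -0.26, -0.67 and -0.32. The third was Cyp7a1, the rate-limiting enzyme of bile acid synthesis and an LXR target in mice, at 1.60, 0.69, 0.83 and 0.022.

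Receptors for thyroid hormone split by subtype. Thra was at 0.17, 0.33, 0.24 and 0.074, with a mean of 0.21 ± 0.11 (SD, n = 4) and an unadjusted limma p of 0.241. Thrb, the main hepatic subtype in function, was at -2.25, -0.19, -0.19 and -0.25. All 4 pairs were lower, but pair 1 set the mean of -0.72 ± 1.02, which was -0.21 without it. The Thrb probe was dim, with an A of 6.06, and the difference between the subtypes was not tested. Among 14 thyroid hormone targets the median was -0.11. In all 4 pairs 1 was higher and 3 were lower, against 10.9% and 10.1% of named genes. Dio1, the deiodinase that thyroid hormone induces in liver, was at -0.31, -0.32, -1.42 and -0.69, lower in every pair. The 1 target higher in every pair was G6pc, at 1.84, 1.55, 2.74 and 0.56.

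Retinoic acid receptor genes gave few firm values. Rara, the brightest, was at -0.25, -0.47, -0.35 and 0.25, with the first 3 pairs below 0 and pair 4 above. Rarg was at 3.80, 0.16, 0.10 and 0.35, so its mean of 1.10 ± 1.80 (SD, n = 4) rested on pair 1 and was 0.20 without it. Rarb was at -1.29, 0.15, -0.74 and -0.18. Of 12 retinoic acid targets 4 were higher and 2 lower in all 4 pairs, against 10.9% and 10.1% of named genes. The list's median was 0.47, with pair medians from -0.050 in pair 4 to 0.79 in pair 1. Cyp26a1, which degrades retinoic acid and is induced by it, was at 0.95, 0.39, 1.5 and 0.81, with a limma p of 0.013 before adjustment. Vdr, the vitamin D receptor, had a dim probe and values between -0.79 and 1.24, lowest in pair 1. Of 6 vitamin D targets 0 were higher and 2 lower in all 4 pairs, against 10.9% and 10.1% of named genes. The list's median was -0.23.

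Hnf4a, the master regulator of hepatocyte identity and the brightest receptor probe, was at -0.31, -0.65, -0.62 and 0.22. Pairs 1 to 3 lay below 0 and pair 4 above, with a mean of -0.34 ± 0.40 (SD, n = 4) and an unadjusted limma p of 0.189. Hnf4g, its gut-enriched relative, had a dim probe and no value in pair 1, and was at 3.90, 0.59 and 1.79 in pairs 2 to 4. The limma fit on those 3 values gave 2.54 ± 0.36 (SE), against a plain mean of 2.09, with p of 0.00599 before and 0.736 after adjustment. Pair 2 alone stood for the Cy3 orientation in that fit. Nr5a2, which encodes LRH-1, a receptor that promotes bile acid synthesis, was at -0.12, -0.87, 0.087 and -0.037. Of 18 HNF4A targets 4 were higher and 3 lower in all 4 pairs, against 10.9% and 10.1% of named genes. The list thus had no common direction, with a median of 0.10. Among these targets G6pc, glucose-6-phosphatase, was at 1.84, 1.55, 2.74 and 0.56, and the clotting factor gene F9 at -0.24, -0.35, -0.61 and -0.45.

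Among the orphan receptors, Nr2f2 stood out. It encodes COUP-TFII, a factor known for specifying venous endothelium, and was at 0.89, 0.82, 0.25 and 0.079. All pairs were higher in the mutant, with a mean of 0.51 ± 0.41 (SD, n = 4) and a limma p of 0.0257 before and 0.736 after adjustment. The 2 Cy3 pairs exceeded the 2 Cy5 pairs, at means of 0.86 and 0.17, with an unadjusted limma p for the dye coefficient of 0.0792. Dye orientation and animal cannot be told apart in that coefficient. Sinusoidal endothelial markers had a median of 0.29 over 13 genes, with pair medians of 0.37, 0.33, 0.18 and 0.35. In all 4 pairs 5 of them were higher and 0 lower, against 10.9% and 10.1% of named genes. Medians of other lists were 0.89 for B and plasma cell, -0.052 for stellate and myofibroblast, -0.1 for hepatocyte and -0.42 for cholangiocyte markers. The part of any cell type in the Nr2f2 value was not tested.

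Nr2f1, the COUP-TFI gene, had the opposite sign, at -0.21, -0.80, -0.010 and -0.86, from a dim probe. Nr2f6, a repressive orphan with a bright probe, was at -0.16, 0.11, 0.14 and 0.26, near 0 in every pair. The testicular receptor genes Nr2c2 and Nr2c1 were highest in pair 4, at 2.04 and 1.55, and the Nr2c2 mean of 0.72 was 0.28 without that pair. Nr6a1, the germ cell nuclear factor gene, ran from -0.46 to 0.17.

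For the steroid receptors, Nr3c1, which encodes the glucocorticoid receptor, was at 0.29, -0.23, -0.22 and -0.076. It had a mean of -0.060 ± 0.25 (SD, n = 4), with pairs on both sides of 0. Of 19 glucocorticoid receptor targets 4 were higher and 4 lower in all 4 pairs, against 10.9% and 10.1% of named genes. An unadjusted limma p under 0.05 was found for 4 on the higher and 5 on the lower side, against 4.74% and 4.52%. Fkbp5, a chaperone that dampens the receptor and is induced by it, was at -0.95, -1.49, -2.35 and -0.54, whereas Per1, also induced, was at 1.48, 0.78, 0.28 and 1.61. Over the list 12 means were positive and 7 negative, with a median of 0.13. Lcn2, the lowest of the list at a mean of -5.05 ± 1.42 (SD, n = 4), is an acute phase gene as well.

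Esr1, which encodes the main hepatic estrogen receptor, was at 0.96, -0.99, -1.12 and -0.87. Pairs 2 to 4 lay together far below 0 and pair 1 as far above. The mean was -0.50 ± 0.98 (SD, n = 4) and -0.99 without pair 1. Pgr, the progesterone receptor gene, was higher in every pair at 0.39, 0.65, 1.82 and 1.00, with a limma p of 0.00993 before and 0.736 after adjustment. Its probe was the dimmest of the 34, where the band of named genes reached 1.31 at the 95th percentile, so that mean of 0.97 ± 0.62 lay inside it.

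Estrogen-related receptors regulate mitochondrial genes without a known hormone. Esrra was lowest in pair 3, at -1.77, and highest in pair 2, at 0.95. Esrrg spanned -0.33 to 0.91. Esrrb was lower in all 4 pairs, at -0.15, -0.89, -1.17 and -0.034, from a dim probe. Of 13 estrogen and ERR targets 2 were higher and 2 lower in all 4 pairs, against 10.9% and 10.1% of named genes. The list's median was 0.0047.

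The NR4A receptors are immediate early genes whose RNA appears within minutes of a stimulus. Nr4a1 was at 3.96, 0.071, -0.28 and 0.53, so that pair 1 set a mean of 1.07 ± 1.96 (SD, n = 4), which was 0.10 without it. Nr4a2 was higher in every pair, at 0.083, 0.15, 0.20 and 0.53. Nr4a3 was at -2.02, -1.12, 0.97 and 1.04, below 0 in both Cy3 pairs and above 0 in both Cy5 pairs. Its dye coefficient had an unadjusted limma p of 0.00393, and it and Hnf4g were the only 2 of the 34 receptor genes (5.88%) under 0.05, against 7.12% of named genes. The adjusted dye p was under 0.05 for 0 receptor genes in limma.

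Coregulators carry the receptors' signal to chromatin. Of 20 coactivator genes 3 were higher and 3 lower in all 4 pairs, with a median of 0.086. Of 13 corepressor genes 3 were higher and 1 lower, with a median of 0.014. The shares of all named genes were 10.9% higher and 10.1% lower. Kat2b, a histone acetyltransferase, was at 0.51, 0.43, 1.43 and 0.84, and Smarcd1, a subunit of SWI/SNF chromatin remodellers, at -0.064, -0.89, -0.56 and -0.21. Ppargc1b, a PGC-1 coactivator of mitochondrial and lipid genes, was at 0.75, 0.25, 0.17 and 0.48, and Nrip1, the corepressor RIP140, at 0.15, 1.07, 0.39 and 0.21. Prox1, a homeobox corepressor of HNF4A and LRH-1, was the corepressor gene lower in every pair, at -0.081, -0.52, -1.56 and -0.19. The probes of Kat2b, Smarcd1 and Prox1 were dim, with A of 5.23, 6.04 and 6.24. Genes that make, carry or break down the ligands were split, with a median of 0.026. Of these 36 genes 6 were higher and 10 lower in all 4 pairs, against 10.9% and 10.1% of named genes. Fabp2, a fatty acid-binding protein, was at 0.99, 0.73, 1.17 and 0.55, while Fkbp5 and Dio1, given above, were among those lower in every pair. In all of these lists the adjusted limma p was under 0.05 for 0 genes.

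**Figure D3:**
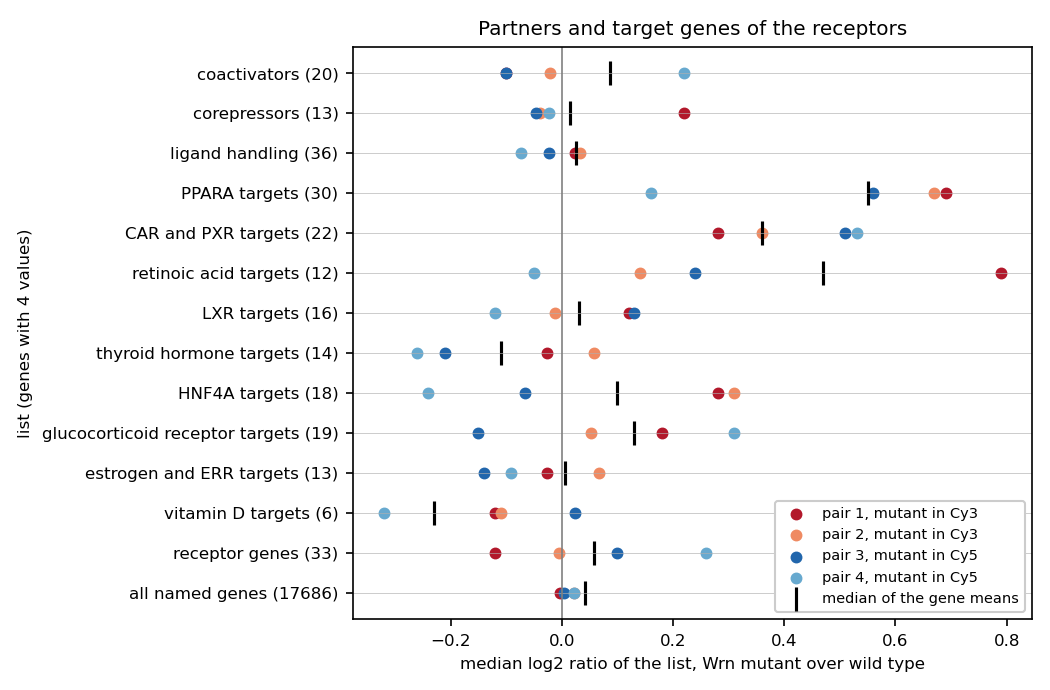
Median log2 ratio of mutant over wild type (horizontal axis) of each list of partners and targets, with the number of genes in brackets; coloured points are the 4 pairs and the black bar is the median of the gene means. CAR and PXR targets and PPARA targets lie right of 0 in every pair, and the receptor genes themselves lie near 0 at 0.057. The lists were chosen with earlier results of these data known.

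For 4 receptor genes the deposited values did not settle the size of the difference. The authors' deposited table has a fold change that equals the mean of the 4 arrays within 1e-04 for 29 of the 33 receptor genes with 4 values, and differs for Esr1, Ppara, Pparg and Rarb. That is 12.1% of them, against 0.842% of named genes, or 149 of 17686. The authors' deposited table gives -1.19 for Esr1 with a p-value of 0.000835. The arrays averaged -0.50 for Esr1, with an unadjusted limma p of 0.252 in the fit with a dye term. For Ppara the authors' deposited table gives 0.89 with a p-value of 0.00602, where the arrays averaged 0.40. For Rarb the sign itself turned, with 0.57 in the authors' deposited table and -0.52 as the array mean, and for Pparg the values were 0.99 and 0.89. Of the 149 genes, 57 had opposite signs in the 2 sources. No source used here gives the cause.

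**Figure D4:**
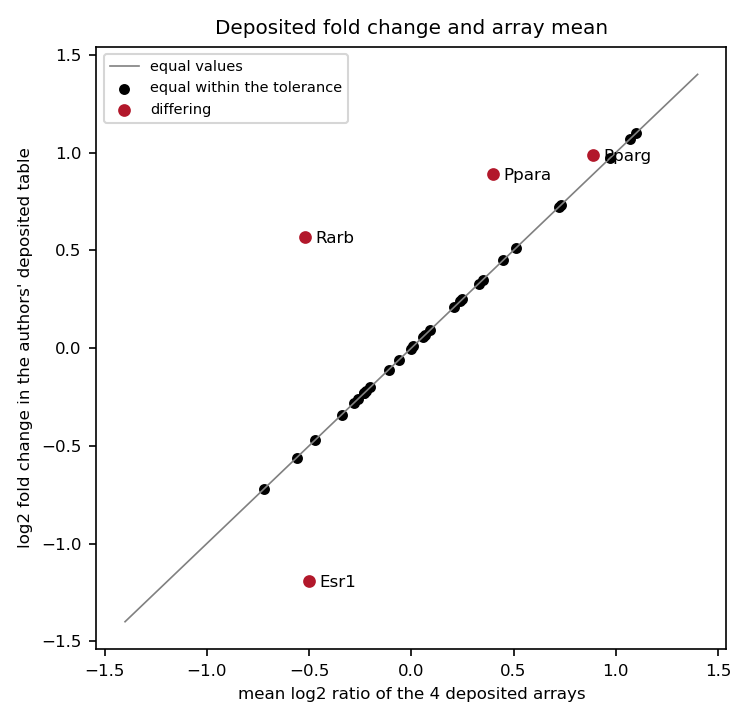
Log2 fold change in the authors' deposited table (vertical axis) against the mean log2 ratio of the 4 deposited arrays (horizontal axis) for 33 receptor genes; the line marks equal values. Ppara and Rarb lie above the line and Esr1 below it, Pparg lies slightly above, and the other 29 lie on it.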

How the data were processed

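For each of 41174 probes the authors deposited a log2 ratio on every array. Their deposited gene table adds, per the file headers, log2 fold changes, p-values and A, the average log2 intensity. Limma is the tool named by the submitters' processing notes, and its version, like the background correction, normalization and filters, is not given in the sources consulted. The numerator is not stated, and all 4 columns were taken to run from mutant over wild type.

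The 40238 probes with at least 3 values were fitted in R 4.3.3 with limma 3.58.1 (lmFit, eBayes) on genotype plus dye orientation, with 2 residual degrees of freedom, two-sided, Benjamini-Hochberg adjusted over all probes at 0.05. Because each array holds a pair, the ratio is the replicate, and the labels call the livers biological replicates. Values are means ± SD over pairs; the number of arrays limits precision. In data simulated with this spread over 35280 probes, 0% of 50 probes changed by 2 log2 units and 62% of 50 changed by 4 were called, with 1 false call.

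The receptor genes and the lists were chosen with earlier results of these data known. All 4 pair values are given for genes with an unadjusted p under 0.05, 1 direction in 4 pairs, or among the 12 brightest, and for others where a sentence needed them. From other lists at most 3 genes per direction were named, by smallest unadjusted p among those with 1 direction; exceptions are marked, and some such genes are not reported here. Some genes stand in several lists, and Nr1h3, Rarb and Esrra are in target lists too. Alternatives were the dye term, the prior, the features and values required, a brightness filter, centring, scaling, array weights, the reading of the dye swap, leaving out each pair, and the authors' deposited fold change.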

Additional observations from a re-analysis of the deposited data

Results flagged for a closer look

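Of 34 results examined, 33 receptor genes and their median, 6 had 1 pair far from the other 3, where chance gives about 1 in 20, or 1.7. Among all 17686 named genes with 4 values the share was 6.44%, and 32.7% of those were pair 1. Pair 1 was the one apart in 5 of the 6 receptor genes, and this array also had 3547 missing values, against 1070 to 1195 on the others. The cause was not tested.

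Esr1 was at 0.96 in pair 1, against -1.12 to -0.87 in the others. Rarg was at 3.80 in pair 1, against 0.10 to 0.35. Thrb was at -2.25 in pair 1, against -0.25 to -0.19. Ppard was at -0.58 in pair 1, against -0.18 to -0.12, and Nr1h2 at -0.30 in pair 1, against 0.079 to 0.11. Rxra was at 0.65 in pair 4, against -0.43 to -0.33.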

How the results depend on the processing

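The number of receptor genes with an adjusted limma p under 0.05 was 0 under every alternative run. Over all 40238 probes 0 were called. A prior following intensity called 42 of 20379 named probes, where the fit of named probes without that prior called 0. Among 10414 named probes brighter than the median 1 was called. Genes of 1 direction numbered 12 of 33, and 7 of the 24 with bright probes. They numbered 3 with the swap read the opposite way, that is, with pairs 3 and 4 turned in sign. Without 1 pair they numbered 15 to 17, but only 3 signs then need to match, so this count cannot fall below 12. The group median of 0.057 ran from -0.054 to 0.10 without 1 pair and was -0.063 with the opposite reading. Without Esr1, Ppara, Pparg and Rarb, an alternative chosen after seeing the data, 11 genes had 1 direction and the median was 0.057.

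Of 275 recomputed values of 20 genes, 260 kept direction and side and 15 turned, 9 of them under the opposite reading. These were Esrrb 0.041, Nr1h3 -0.17, Nr1i2 -0.017, Nr1i3 -0.048, Nr2f6 -0.11, Nr3c1 0.090, Nr4a2 -0.12, Pgr -0.45 and Ppara -0.063. Centring turned Nr1i2 to -0.00055. Without 1 pair the fitted values ran from -0.039 to 0.17 for Nr1h3, -0.22 to 0.24 for Nr1i2, -0.19 to 0.071 for Nr3c1 and -0.36 to 0.13 for Rxra. The cause was not tested. Nr1i3 ran from 0.63 to 0.83, and its lowest adjusted limma p over all settings was 0.063. Every fit used ratios within a pair and is thus paired by array; no fit without the pairing was run.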

Other observations

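Receptors of the same superfamily that the selection left out gave 10 genes with 4 values of 13, with a median of 0.13. Of them 2 were higher and 0 lower in all 4 pairs, against 10.9% and 10.1% of named genes. Nr1h4, the bile acid receptor FXR, was at 0.53, 0.46, 0.47 and 0.21, with a bright probe and an unadjusted limma p of 0.0504. Nr0b2, the FXR-induced repressor SHP, was at -1.47, -1.02, -0.55 and 0.56, singled out after its values were seen.

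Esr2, the other estrogen receptor gene, also singled out afterwards, was at 1.46, -1.27, -1.16 and -1.31, the order of signs seen for Esr1. The Esr2 probe was dim, with an A of 5.82. Esr2 is also among the 149 genes whose fold change in the authors' deposited table differs from the array mean, at -0.82 against -0.57.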
